A study of Homo sapiens with 18 samples.

Results

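The liver X receptors (LXR) and the sterol genes linked to them were followed as a set of 10 genes out of the 58884 gene identifiers counted in this experiment. The set was chosen by name and role, with earlier results of these data known. It holds the receptors NR1H2 (LXRβ) and NR1H3 (LXRα), the efflux transporters ABCA1, ABCG1 and ABCG4, the apolipoprotein APOE and the ubiquitin ligase MYLIP. The other members are the lipid enzyme LPCAT3, the nucleotide phosphodiesterase SMPDL3A and the oxysterol-forming enzyme CYP27A1. All 10 passed the filter on low counts in every fit.

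RNA was sequenced from T47D, an established luminal breast cancer cell line. WT cells (the line labelled T47D AAV) and PARP1 KO cells (the line labelled T47D JL) were each exposed for 48 hours to DMSO alone, to niraparib at 10 μmol/L or to olaparib at 10 μmol/L, with 3 libraries in each of the 6 groups and both drugs being inhibitors of poly(ADP-ribose) polymerases. The design asks what each inhibitor changed and whether the change needed PARP1. How the PARP1 KO line was made and whether it is 1 clone are not given in the sources used here. The study's methods describe 3 dishes seeded for each condition but do not tie a library to a dish, so P values measure at most the spread between dishes of 1 line.

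LXRs are nuclear receptors that bind DNA as partners of a retinoid X receptor (RXR) and switch on their targets when they bind oxysterols or desmosterol, the signs of a cell rich in cholesterol. Their classical targets move cholesterol out of the cell (ABCA1 and ABCG1 load it onto apolipoproteins and lipoprotein particles) and slow its entry, because MYLIP, also called IDOL, marks lipoprotein receptor proteins for degradation. In macrophages and liver this program guards against sterol overload.

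LXR with RXR binds copies of the letters AGGTCA repeated in one direction with a gap of 4 bases, a direct repeat known as DR4, and the proximal ABCA1 promoter is a textbook carrier of such an element. The 250 bases before the RefSeq start of ABCA1 and of MYLIP are shown because these members had the largest differences between niraparib and DMSO in WT cells. Both run 5′ to 3′ on the strand of the gene, and capitals mark the 16 bases closest to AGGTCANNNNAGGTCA on either strand. The ABCA1 stretch is chr9:104928156-104928405 on the minus strand and the MYLIP stretch is chr6:16128836-16129085 on the plus strand (GRCh38.p14).
ABCA1: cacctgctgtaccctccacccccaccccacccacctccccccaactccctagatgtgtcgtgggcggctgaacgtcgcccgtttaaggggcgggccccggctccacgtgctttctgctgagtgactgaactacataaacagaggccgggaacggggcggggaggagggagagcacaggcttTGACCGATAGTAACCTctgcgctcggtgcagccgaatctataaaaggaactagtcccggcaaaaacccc
MYLIP: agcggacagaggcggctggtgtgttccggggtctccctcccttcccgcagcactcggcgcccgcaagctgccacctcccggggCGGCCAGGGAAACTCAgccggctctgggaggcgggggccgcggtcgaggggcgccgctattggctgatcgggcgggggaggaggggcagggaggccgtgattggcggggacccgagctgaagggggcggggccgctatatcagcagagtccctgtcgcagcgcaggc

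In ABCA1 the closest run was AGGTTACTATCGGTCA on the opposite strand, which differed from the DR4 letters at 2 of the 12 set bases. Of 35116 RefSeq windows of 300 bases around gene starts, 2.34% held a run at least that close. RefSeq gave 14 such windows for 8 of the 10 members, with none matched for ABCG1 and SMPDL3A. The other 13 windows, MYLIP's among them, differed at 4 or 5 set bases, and 72.5% of all windows came within 4. These are counts of letters in short windows and say nothing of binding or of elements elsewhere.

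Library totals lay between 28890837 and 52251288 counts. PARP1 stood at 340.9 ± 17.9 CPM (counts scaled to a common library total; SD, n = 9) in WT and at 24.8 ± 1.34 (n = 9) in PARP1 KO libraries, or 7.27% of WT, with no overlap (exact permutation test, two-sided, P = 4.11e-05, the smallest it can give). The luminal markers GATA3, FOXA1, ESR1, KRT8, KRT18 and KRT19 were abundant (means of 148.6 to 3452 CPM), whereas none of 5 macrophage and leukocyte markers (CD14, CD68, CD163, CSF1R, PTPRC) exceeded 0.528 CPM in a library. Replicate 1 of WT DMSO, replicate 2 of WT niraparib and replicate 3 of PARP1 KO niraparib stood apart from the other 2 libraries of their groups. Their counts differed from those by a chi-square per gene of 10.73 to 17.33, against 3.002 to 3.242 between the others, and results that rest on them are given with and without them. Replicate 3 of PARP1 KO DMSO differed from the others by 5.362 and 9.681, and in PARP1 KO olaparib each pair of libraries differed by 7.534 or more.

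**Figure D1:**
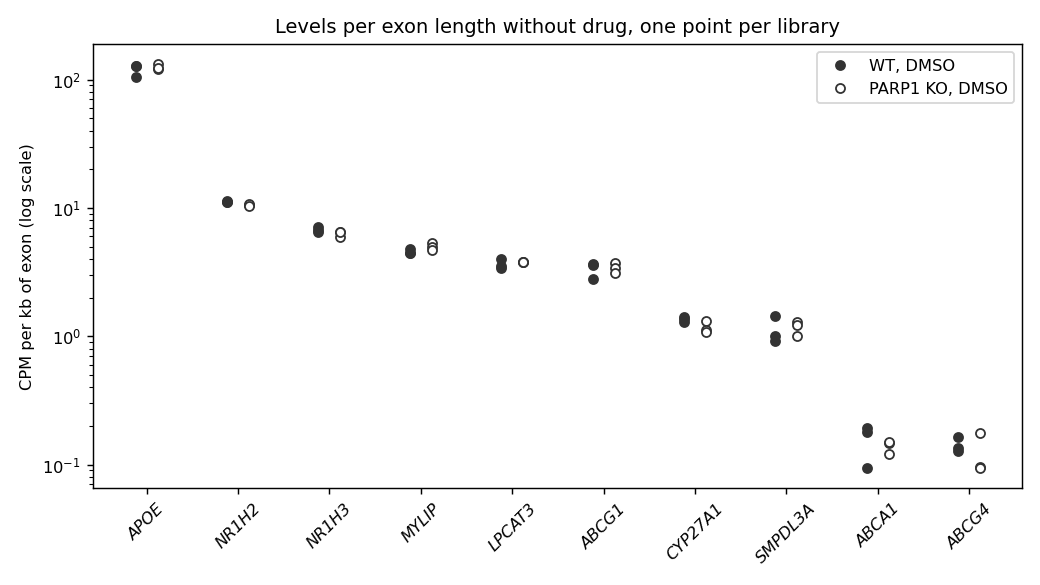
Levels of the 10 genes without drug as CPM per kb of exon (log axis), in order of the WT mean; each point is 1 library, filled for WT and open for PARP1 KO. The WT mean of APOE is 119.4 CPM per kb and those of ABCA1 and ABCG4 are 0.155 and 0.142, and the WT and PARP1 KO points lie side by side for each gene.

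Levels between genes were compared as CPM per kb of exon. In WT cells with DMSO, APOE, a lipid carrier protein, was highest at 119.4 ± 13.5 (SD, n = 3). The receptors came next, NR1H2 at 11.2 ± 0.144 and NR1H3 at 6.73 ± 0.300, so that both LXR transcripts were present. MYLIP followed at 4.59 ± 0.191. LPCAT3 (3.64 ± 0.338) and ABCG1 (3.35 ± 0.496) overlapped, as did CYP27A1 (1.36 ± 0.0628) and SMPDL3A (1.12 ± 0.285). ABCA1 (0.155 ± 0.0533) and ABCG4 (0.142 ± 0.0195) were lowest and overlapped each other. Thus ABCA1, usually the emblem of LXR activity, was represented by 32 to 106 counts in a WT DMSO library, and ABCG4, best known from neurons, by 31 to 44 (31 to 238 and 18 to 94 over all 18 libraries). In PARP1 KO cells with DMSO the order was the same except that SMPDL3A (1.18 ± 0.150) and CYP27A1 (1.17 ± 0.128) changed places, and these overlapped.

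Without drug, no difference between the genotypes in these genes passed the test. In PARP1 KO against WT cells with DMSO, 0 of the 10 members were called, where a call needs an adjusted P below 0.05 together with a change exceeding 1.5-fold in edgeR (0.146% of all genes tested). Likewise 0 of 10 had an unadjusted P below 0.05 (13.6% of all genes). DESeq2 called 0 too, but it gave ABCA1 and ABCG4 no adjusted P and so could not call them. Its share over all genes is not given here. In edgeR the differences ran from -0.22 for ABCG4 to 0.12 for MYLIP on the log2 scale. The 95% interval for MYLIP was -0.047 to 0.29, within 1.5-fold, whereas that for ABCA1 reached from -0.71 to 0.36.

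**Figure D2:**
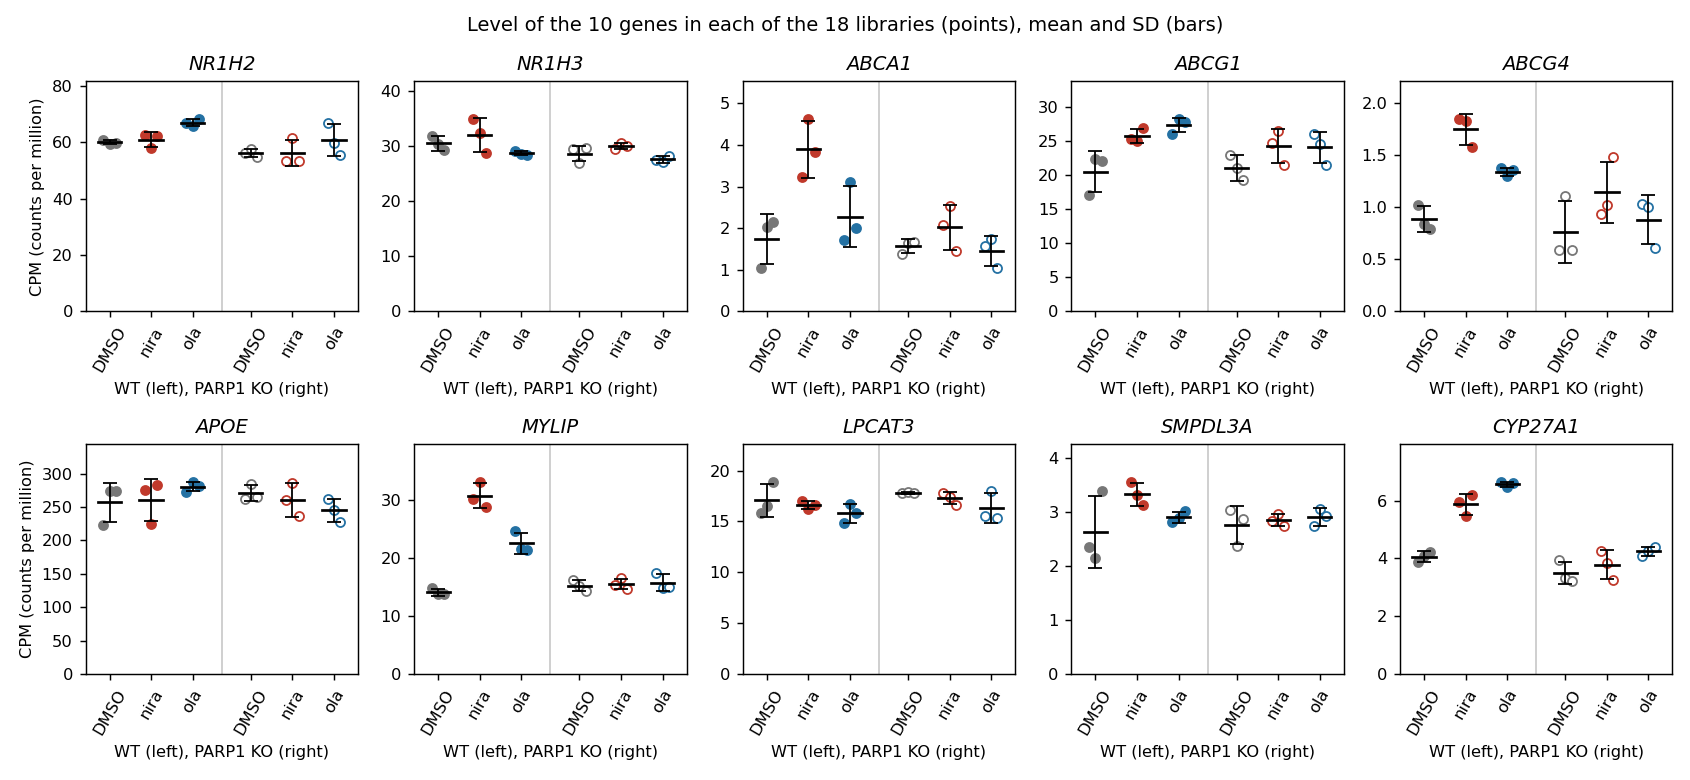
CPM of each of the 10 genes in the 18 libraries, by group (nira, niraparib; ola, olaparib; filled, WT; open, PARP1 KO); bars give mean and SD of 3 libraries, and each vertical axis starts at 0. MYLIP sits between 28.9 and 33.1 CPM in WT niraparib, 21.4 and 24.7 in WT olaparib, and 13.8 and 17.5 in the other 12 libraries.

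In WT cells niraparib raised MYLIP, ABCA1 and ABCG4 and left the receptors near their starting levels. These 3 of 10 members were called higher than with DMSO and 0 lower, against 8.10% of all genes called higher, 5.72% called lower and 13.8% called in either direction. The study had already reported these 3 as raised by niraparib in T47D cells, so their count is not an independent result. On adjusted P alone 5 of 10 were higher (19.9% of all genes), ABCG1 and CYP27A1 being the others. The median change over the 10 members was 0.24 on the log2 scale, beside -0.025 over all 22446 genes tested. As these are bulk libraries, more cells with a transcript and more transcript per cell cannot be told apart.

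MYLIP (ENSG00000007944, chr6:16129086-16148248 on the plus strand, GRCh38), read over all its exons, showed the clearest difference. Its 3 libraries stood at 14.8, 13.8 and 13.8 CPM with DMSO and at 30.3, 33.1 and 28.9 with niraparib, so the groups lay far apart. The change was 1.03 on the log2 scale (SE 0.075, adjusted P = 3.34e-10), about 2.04-fold, and it stayed between 0.98 and 1.07 over fits that each left out 1 library. It was nevertheless not extreme among all genes, as 844 called genes rose by more.

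ABCA1 (ENSG00000165029, chr9:104781006-104928155 on the minus strand) exports cholesterol and phospholipid to lipid-poor apolipoprotein A-I. It gave 1.06, 2.03 and 2.15 CPM with DMSO and 3.24, 4.61 and 3.82 with niraparib. All niraparib libraries lay above all DMSO libraries, as they did for 30.2% of all genes tested. Both groups were wide and each held 1 of the WT libraries that stood apart, the lowest of the DMSO group and the highest of the niraparib group. The change was 1.04 on the log2 scale (SE 0.25, adjusted P = 0.0025, 95% interval 0.52 to 1.56). Without both of those libraries it was 0.68 (adjusted P = 0.0051) and still called.

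ABCG4 (ENSG00000172350, chr11:119149052-119162653 on the plus strand), a transporter of the ABCG1 type, moved from 1.02, 0.84 and 0.79 CPM to 1.84, 1.82 and 1.58. The groups did not overlap, at 31 to 44 counts per library with DMSO and 59 to 94 with niraparib. Its log2 change was 0.89 (SE 0.23, adjusted P = 0.0029), with an interval of 0.42 to 1.36 that shows how loosely so few counts fix its size.

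ABCG1, the partner of ABCA1 that loads cholesterol onto larger lipoprotein particles, changed far less than either. It read 17, 22.4 and 22.1 CPM with DMSO and 25.3, 24.98 and 26.9 with niraparib. The log2 difference of 0.22 (adjusted P = 0.045) was below 1.5-fold and rested on replicate 1 of WT DMSO, without which it was 0.11 with an adjusted P of 0.24. CYP27A1, the mitochondrial enzyme that makes 27-hydroxycholesterol, an LXR ligand, rose from 3.86, 4.10 and 4.23 CPM to 5.95, 5.48 and 6.20. This was a log2 change of 0.43 (SE 0.12, adjusted P = 0.0063), also under 1.5-fold.

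The remaining members gave no adjusted P below 0.05 with niraparib in WT cells. The log2 change of NR1H2 was -0.073 (95% interval -0.18 to 0.036) and that of NR1H3 -0.024 (-0.17 to 0.12). LPCAT3, which builds polyunsaturated phospholipids, gave -0.14 (-0.31 to 0.034), and APOE gave -0.074 (-0.34 to 0.19). For these 4 genes a change of 1.5-fold lay outside the interval, whereas SMPDL3A, a nucleotide phosphodiesterase known as an LXR target in macrophages, gave 0.25 with an interval of -0.12 to 0.62 that did not exclude it. APOE read 223.6 CPM in replicate 1 of WT DMSO and 224.3 in replicate 2 of WT niraparib, the WT libraries that stood apart, and 272.9 to 287.2 in the other 7 WT libraries. Of the exon length of LPCAT3, 66.0% overlaps EMG1 on the opposite strand, and of that of NR1H2, 22.1% overlaps NAPSA, and the counting used the strand.

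**Figure D3:**
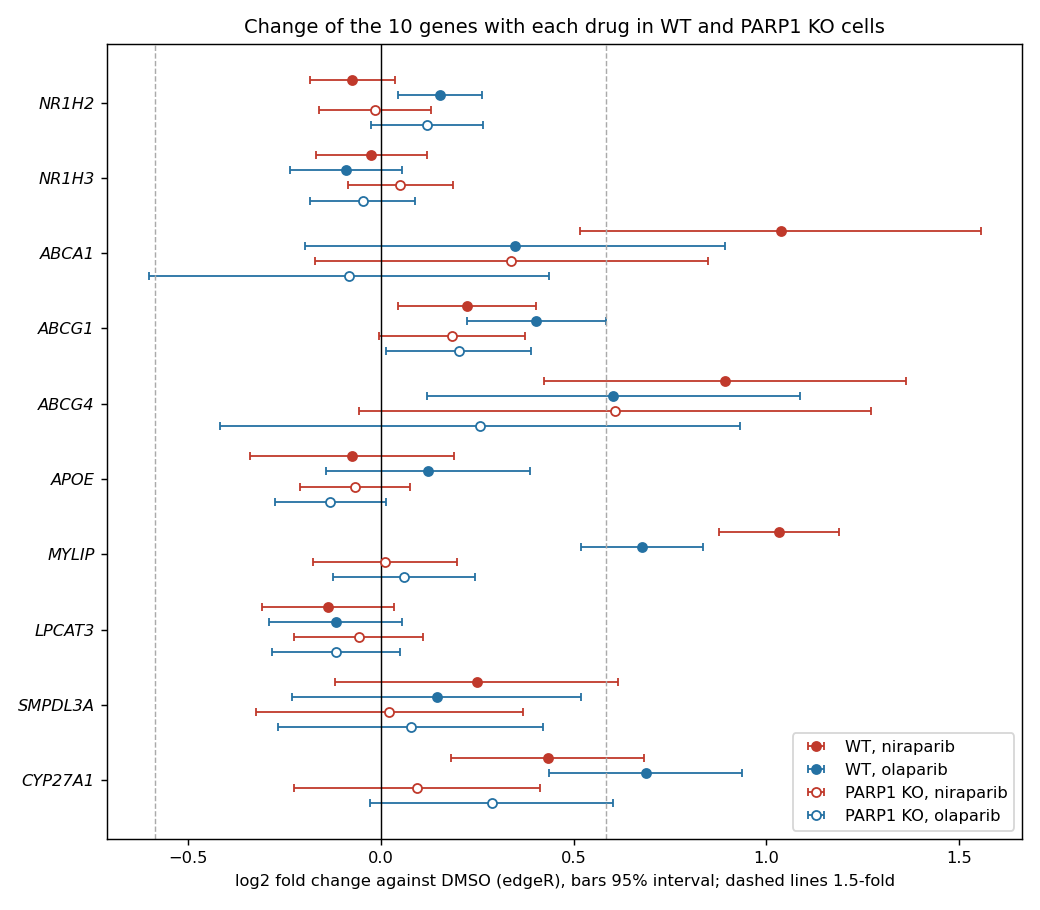
log2 fold changes against DMSO with 95% intervals for the 10 genes, with filled points for WT, open points for PARP1 KO, red for niraparib and blue for olaparib; dashed lines mark 1.5-fold. The filled MYLIP points lie at 1.03 and 0.68 and the open ones at 0.011 and 0.060, while the receptor points lie between -0.089 and 0.15 in all 4 comparisons.

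Olaparib at the same dose was measured in WT cells against the same DMSO libraries. The called members were not the same as with niraparib, which alone does not show that the drugs differ. Their direct comparison is given further on. MYLIP and CYP27A1 were called, so 2 of 10 members were higher and 0 lower, beside 2.06% of all genes called higher and 4.04% in either direction. On adjusted P alone 4 were higher (11.2% of all genes), with ABCG1 and NR1H2 added. The median over the members was 0.25 on the log2 scale, beside -0.017 over all genes.

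With olaparib MYLIP read 24.7, 21.6 and 21.4 CPM, above every DMSO library and below every niraparib library. Of all genes tested, 19.2% had every olaparib library above every DMSO library, and 29.2% had every niraparib library above every olaparib library. The log2 change of MYLIP from DMSO was 0.68 (SE 0.076, adjusted P = 1.497e-06). CYP27A1 read 6.64, 6.47 and 6.60 CPM, the tightest of its groups and above all DMSO libraries, with a change of 0.69 (SE 0.12, adjusted P = 2.9e-04). ABCG1 stood at 26.1, 28.1 and 27.7 CPM, also above all DMSO libraries, with a change of 0.40 (adjusted P = 0.0021) that stayed below 1.5-fold. It was 0.29 without replicate 1 of WT DMSO, at an adjusted P of 0.016 or lower in all fits without 1 library.

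The other efflux transporters were not called with olaparib. ABCA1 read 1.71, 3.10 and 2.01 CPM, overlapping the DMSO libraries, and its log2 difference of 0.35 had an interval of -0.20 to 0.89 (adjusted P = 0.40). It rested on replicate 2 of WT olaparib, without which it was 0.056 (adjusted P = 0.92), and fits without 1 library gave up to 0.52. ABCG4 read 1.37, 1.29 and 1.35 CPM, above all DMSO libraries, and its difference of 0.60 gave an adjusted P of 0.076; without the 2 WT libraries that stood apart it was 0.70 with an adjusted P of 0.038 and was called. NR1H2 read 60.9, 59.4 and 59.9 CPM with DMSO and 66.8, 65.6 and 68.1 with olaparib. That difference of 0.15 had an adjusted P of 0.046, which rose to as much as 0.16 when 1 library was left out. The log2 differences of NR1H3 (-0.089), LPCAT3 (-0.12), SMPDL3A (0.15) and APOE (0.12) had intervals within 1.5-fold.

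The 2 inhibitors were compared directly in WT cells at their matched dose and time. ABCA1 was the 1 member of 10 called, higher with niraparib (8.95% of all genes called in either direction, 5.62% higher). Its lowest niraparib library (3.24 CPM) stood just above its highest olaparib library (3.10), and the groups overlapped once CPM were scaled by TMM as the test does. Its log2 difference was 0.69 (SE 0.24, adjusted P = 0.038). Leaving out 1 library ended this call in 4 of 6 cases, without replicate 2 or 3 of niraparib or replicate 1 or 3 of olaparib, with adjusted P values of 0.076 to 0.17 and differences of 0.51 to 0.70. Without the 2 WT libraries that stood apart the difference was 0.56 with an adjusted P of 0.015, just below 1.5-fold.

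MYLIP was higher with niraparib than with olaparib by 0.35 on the log2 scale (SE 0.073, adjusted P = 5.59e-04), less than 1.5-fold. NR1H2 was lower with niraparib by the same test, at -0.23 (SE 0.053, adjusted P = 0.0018), so that 3 of 10 members passed on adjusted P alone, beside 32.2% of all genes. The adjusted P values of both stayed below 0.05 in the 6 fits without 1 library. No adjusted P below 0.05 was found for ABCG1 (-0.18, 95% interval -0.36 to -0.00096), ABCG4 (0.29, -0.16 to 0.74) or CYP27A1 (-0.25, -0.50 to -0.011).

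The receptors were also set against each other. Per exon length, NR1H2 exceeded NR1H3 by 1.67 ± 0.0615-fold (SD, n = 3) in WT DMSO, 1.63 ± 0.183-fold in WT niraparib and 1.98 ± 0.0518-fold in WT olaparib. In PARP1 KO cells the ratios were 1.67 ± 0.123 (DMSO), 1.59 ± 0.105 (niraparib) and 1.87 ± 0.200 (olaparib). The WT olaparib libraries lay above the WT libraries of the other treatments, and in PARP1 KO cells the groups overlapped.

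In PARP1 KO cells none of the changes of WT cells passed the test. With niraparib 0 of 10 members were called in edgeR, beside 0.0136% of all genes, 0 had an unadjusted P below 0.05 (9.13% of all genes) and DESeq2 called 0. With olaparib the counts were 0 called in edgeR, beside 0.803% of all genes, 1 at an unadjusted P below 0.05 (ABCG1, 0.20 on the log2 scale, beside 21.1% of all genes) and 0 in DESeq2. Between niraparib and olaparib 0 of 10 were called in edgeR, beside 1.07% of all genes, with 0 at an unadjusted P below 0.05 (22.1% of all genes) and 0 in DESeq2. DESeq2 gave no adjusted P to ABCG4 in any of these comparisons or to ABCA1 with niraparib against DMSO, so it could not call them there. Its shares over all genes are not given here.

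MYLIP kept to a narrow range across the PARP1 KO groups. It read 16.3, 15.1 and 14.3 CPM with DMSO, 15.4, 16.5 and 14.6 with niraparib and 17.5, 14.9 and 14.99 with olaparib, so all 3 groups overlapped. The log2 difference from DMSO was 0.011 with niraparib (95% interval -0.17 to 0.20) and 0.060 with olaparib (-0.12 to 0.24), both intervals lying within 1.5-fold.

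ABCA1 and ABCG4 were less firmly placed in PARP1 KO cells. ABCA1 read 1.37, 1.65 and 1.68 CPM with DMSO, 2.08, 2.53 and 1.45 with niraparib and 1.58, 1.74 and 1.04 with olaparib. Its groups overlapped, and the niraparib difference of 0.34 had an interval of -0.17 to 0.85. ABCG4 read 0.59, 1.10 and 0.59 CPM with DMSO, 0.93, 1.02 and 1.47 with niraparib and 1.03, 1.003 and 0.60 with olaparib, and its niraparib difference was 0.61 (-0.056 to 1.27). The ABCG4 interval held both 0 and the 0.89 of WT cells. Replicate 3 with niraparib, which stood apart, was the lowest of its group for ABCA1 and the highest for ABCG4. Without it the differences were 0.55 for ABCA1 (adjusted P = 0.59) and 0.37 for ABCG4 (adjusted P = 0.87), and without replicate 2 of PARP1 KO DMSO that of ABCG4 was 0.93 (adjusted P = 0.58). ABCG1 was placed more firmly. It read 22.9, 21.01 and 19.2 CPM with DMSO, 24.7, 26.5 and 21.5 with niraparib and 26.02, 24.6 and 21.5 with olaparib. All 3 groups overlapped, and the log2 differences of 0.19 with niraparib (-0.0039 to 0.37, adjusted P = 0.56) and 0.20 with olaparib (0.014 to 0.39, adjusted P = 0.20) had intervals within 1.5-fold. CYP27A1 differed by 0.093 with niraparib (-0.23 to 0.41) and 0.29 with olaparib (-0.027 to 0.60). The receptors, LPCAT3, SMPDL3A and APOE differed from DMSO by -0.13 (APOE, olaparib) to 0.12 (NR1H2, olaparib), with intervals within 1.5-fold for all 5 and both drugs.

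**Figure D4:**
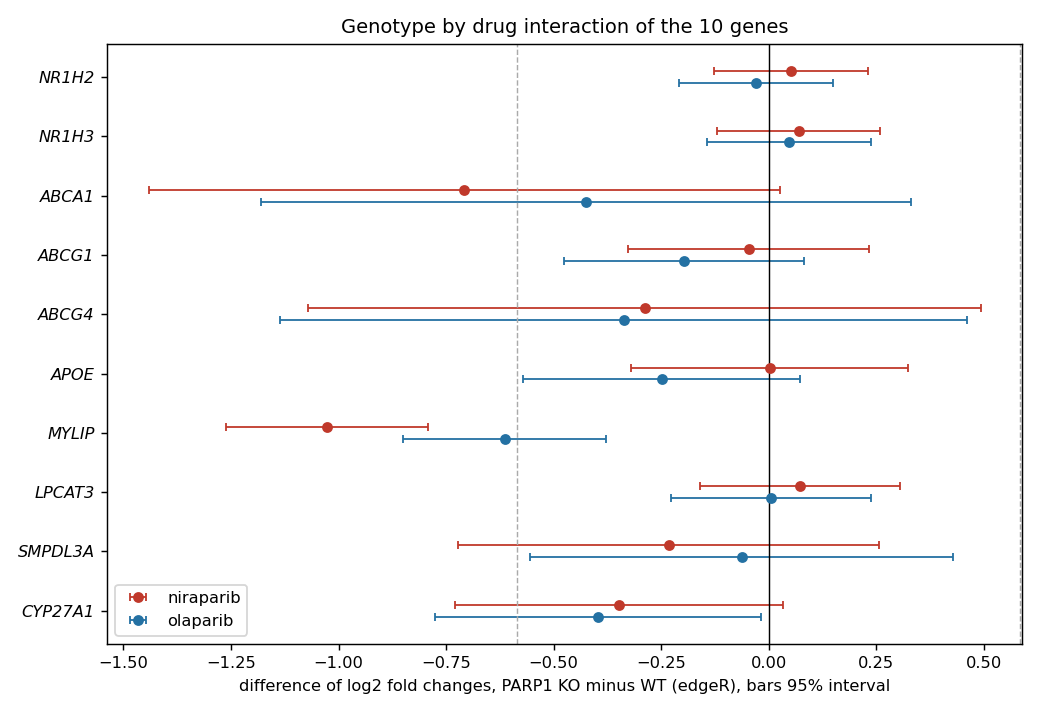
Difference between the drug change in PARP1 KO and that in WT cells (log2 scale, 95% intervals) for the 10 genes, red for niraparib and blue for olaparib; dashed lines mark 1.5-fold. MYLIP lies at -1.03 and -0.61 and is the only gene called; ABCA1 and ABCG4 have the widest intervals.

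Whether a drug change differed between genotypes was tested as an interaction over all 18 libraries. For niraparib 1 of 10 members was called, MYLIP, beside 8.88% of all genes. Its change was smaller in PARP1 KO cells by 1.03 on the log2 scale, an interaction of -1.03 (SE 0.116, 95% interval -1.26 to -0.79, adjusted P = 1.30e-08), which was called in each of 12 fits without 1 library and, at -0.97, without all 3 libraries that stood apart. For olaparib 1 of 10 was called, again MYLIP, beside 0.657% of all genes, at -0.61 (SE 0.116, 95% interval -0.85 to -0.38, adjusted P = 0.0021). The latter fell below 1.5-fold, at -0.55 to -0.57 with an adjusted P of 0.015 or lower, in 4 of 12 such fits, namely without WT olaparib replicate 1, PARP1 KO DMSO replicate 1 or PARP1 KO olaparib replicate 2 or 3. The 2 interactions share the DMSO libraries of both genotypes.

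For the other members the drug changes were not shown to differ between genotypes. The niraparib interaction of ABCA1 was -0.71 (95% interval -1.44 to 0.026, adjusted P = 0.17), and it was -0.35 without the 2 WT libraries that stood apart and -0.14 (adjusted P = 0.85) without all 3 such libraries. For ABCG4 it was -0.29 (-1.07 to 0.49), with -0.60 (adjusted P = 0.40) without all 3 and 0.050 without replicate 2 of PARP1 KO DMSO, and for CYP27A1 -0.35 (-0.73 to 0.034). The remaining niraparib interactions ran from -0.23 (SMPDL3A) to 0.073 (LPCAT3). The olaparib interaction of CYP27A1 was -0.40 (-0.77 to -0.018, adjusted P = 0.29), and the others ran from -0.43 (ABCA1) to 0.047 (NR1H3). That ABCA1, ABCG4 and CYP27A1 were called only in WT cells is therefore not evidence of a difference between the genotypes, in contrast to MYLIP.

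Of the lipoprotein receptors that MYLIP targets for degradation as proteins, LRP8 and VLDLR were read at the level of RNA. With niraparib in WT cells 1 of these 2 was called lower (5.72% of all genes). LRP8 stood at 23.2 ± 1.02 CPM with DMSO and 13.5 ± 0.0648 with niraparib (SD, n = 3), a log2 change of -0.88 (adjusted P = 3.40e-09). VLDLR differed by -0.040 (95% interval -0.30 to 0.22).

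With olaparib the order was another. VLDLR was called higher, at 0.72 (adjusted P = 2.18e-04; 1 of 2, beside 2.06% of all genes), and LRP8 differed by -0.19 (adjusted P = 0.080). VLDLR was also higher with olaparib in PARP1 KO cells, at 6.22 ± 0.353 CPM with DMSO and 9.05 ± 0.524 with olaparib, a log2 change of 0.55 (adjusted P = 0.0044) that stayed below 1.5-fold (1 of 2 higher on adjusted P alone, beside 4.42% of all genes). Its olaparib interaction was -0.16 (95% interval -0.50 to 0.17). In PARP1 KO cells niraparib left LRP8 at 22.3 ± 1.07 CPM beside 23.3 ± 0.621 with DMSO, a log2 difference of -0.078 (adjusted P = 0.81). The niraparib interaction of LRP8 (0.80, adjusted P = 3.04e-07) was called, with the opposite sign to that of MYLIP, and that of VLDLR (0.36, adjusted P = 0.13) was not.

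**Figure D5:**
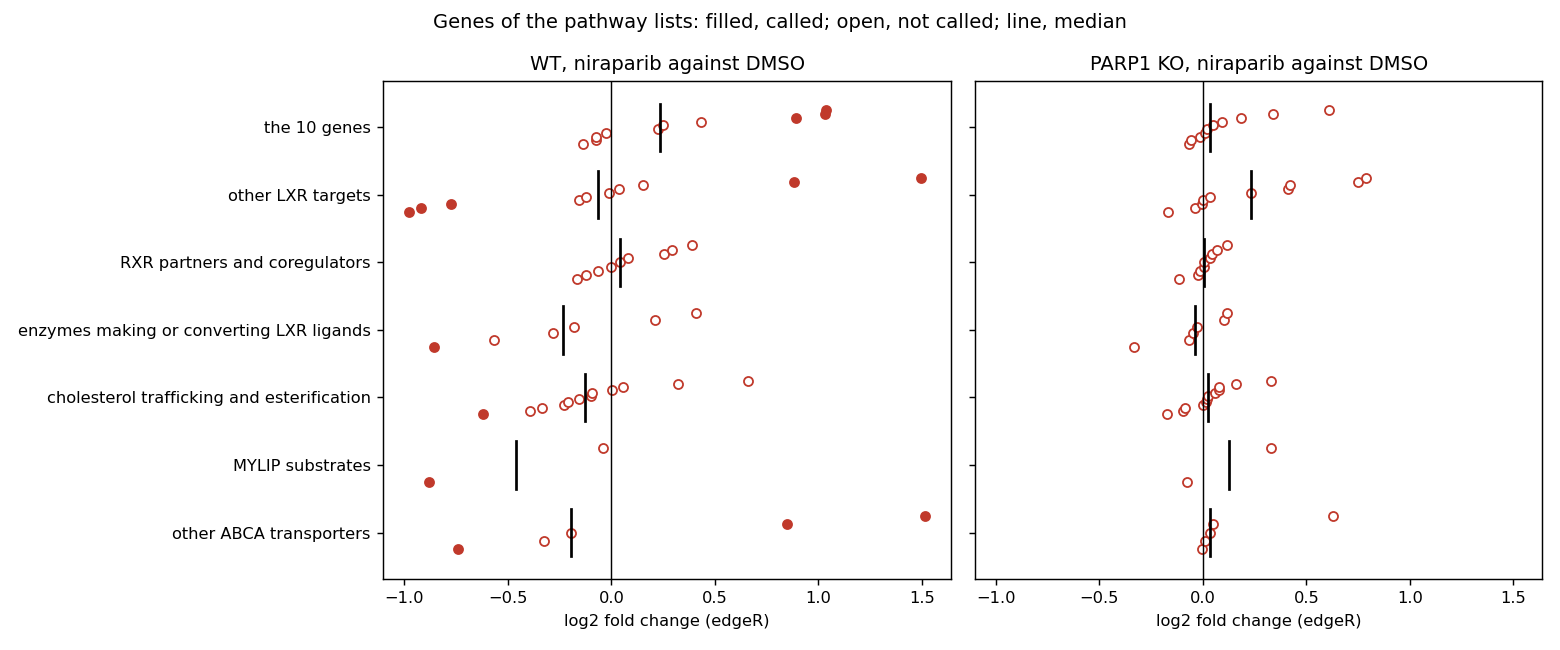
log2 fold changes with niraparib in WT (left) and PARP1 KO cells (right) for the 10 genes and 6 related lists; filled points were called, open ones were not, lines are medians of the tested genes, and genes below 0.1 CPM in both groups are not drawn. Filled points occur on both sides of 0 in WT cells and nowhere in PARP1 KO cells.

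Other genes described as LXR targets moved in both directions with niraparib in WT cells, 2 higher (8.10% of all genes) and 3 lower (5.72%) among 10 tested of 17 listed. The lower ones were the lipogenic enzymes SCD (1414 ± 15.4 to 766 ± 47.4 CPM, log2 change -0.98, adjusted P = 4.65e-12) and FASN (1363 ± 108 to 769 ± 28.9 CPM, -0.92, adjusted P = 3.54e-11), and the ubiquitin ligase RNF145 (-0.78), a gene of the list that was named here after its value was seen. Both enzymes are also targets of the SREBP factors. Higher were the phagocytic receptor MERTK (0.855 ± 0.180 to 1.66 ± 0.315 CPM, 0.88, adjusted P = 0.0095) and the apolipoprotein APOC1 (0.174 ± 0.0782 to 0.518 ± 0.226 CPM, 1.498, adjusted P = 0.021). APOC1 rests on 5 to 25 counts a library and shares 43.2% of its exon length with another gene on its strand. The median over the 10 was -0.066, beside -0.025 over all genes. With olaparib in WT cells MERTK was called too (0.92, adjusted P = 0.016), while SCD (-0.17, adjusted P = 0.026) and FASN (-0.41, adjusted P = 2.57e-05) fell by less than 1.5-fold.

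The niraparib interactions of SCD (0.97), FASN (0.95) and RNF145 (0.60) were called, 3 of 12 tested in this list (3.68% of all genes called with that sign). Those of MERTK (-0.097, 95% interval -0.94 to 0.74) and APOC1 (-0.75, -2.58 to 1.08) were not. In PARP1 KO cells MERTK went from 0.480 ± 0.146 CPM without drug to 0.837 ± 0.112 under niraparib and 0.896 ± 0.125 under olaparib, log2 differences of 0.79 (adjusted P = 0.46) and 0.90 (adjusted P = 0.090) that were not called.

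Changes among the partners of LXR stayed below 1.5-fold. Among RXR genes and coregulators 0 of the 9 tested were called with niraparib in WT cells by edgeR, beside 13.8% of all genes. In this list 5 had an unadjusted P below 0.05 (44.8% of all genes) and 4 an adjusted one, 3 higher and 1 lower (38.0% of all genes), and the median was 0.040. Among the enzymes that make sterol ligands of LXR or their precursors (CYP46A1, SQLE and LSS) or convert oxysterols further (CYP7B1, CYP39A1 and SULT2B1) 1 of 6 was called lower (5.72% of all genes) and 0 higher (8.10%), while on adjusted P alone 4 were lower (18.1% of all genes) and 0 higher (19.9%), with a median of -0.23. The called gene was SQLE, which oxidises squalene early in the sterol pathway (-0.86, adjusted P = 3.30e-11), and its niraparib interaction of 0.95 was called.

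Among genes of cholesterol trafficking and esterification 1 of 12 was called lower (5.72% of all genes), OSBP, an oxysterol-binding lipid exchanger (-0.62), with an interaction of 0.64 that was called, and 0 were called higher (8.10%). On adjusted P alone 5 of the 12 were lower (18.1%) and 1 higher (19.9%). Other transporters of the ABCA family split. ABCA13 (1.52) and ABCA12 (0.85), the lipid transporter of skin lamellar granules, were higher and ABCA2 (-0.74), a transporter of late endosomes and lysosomes, was lower, so that 2 of the 5 tested were called higher (8.10% of all genes) and 1 lower (5.72%), and 2 higher and 3 lower on adjusted P alone. The interactions of ABCA12 (-0.81) and ABCA2 (0.73) were called and that of ABCA13 (-0.89, adjusted P = 0.28) was not. With niraparib in PARP1 KO cells 0 of the 45 genes tested from these 6 lists were called in edgeR, beside 0.0136% of all genes, and 8 had an unadjusted P below 0.05, beside 9.13%.

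Markers of cell identity moved with the drugs beside these results. The summed level of 7 luminal markers was 12026 to 12566 CPM in WT DMSO, 9319 to 9999 in WT niraparib and 9400 to 9788 in WT olaparib. In PARP1 KO cells it was 13158 to 13970 with DMSO, 12267 to 12879 with niraparib and 11028 to 12321 with olaparib. The sum of 3 basal markers, nearly all of it TP63, was 2.49 to 2.74 CPM in WT niraparib and 1.23 to 2.13 in the other groups. Of 3 fibroblast markers, COL1A1 made up nearly all of the sum, COL3A1 and PDGFRB having at most 13 and 6 counts in a library. That sum was 100.3 to 127.6 CPM in WT DMSO, 117.8 to 164.6 in WT niraparib and 95.3 to 106.0 in WT olaparib, and in PARP1 KO cells 86.4 to 104.7, 96.6 to 133.5 and 96.5 to 122.8 in the same order, so it lay higher with niraparib than with olaparib in WT cells and overlapped between each drug and DMSO. The part of these markers in the changes of MYLIP and the transporters was not tested. Endothelial and hepatocyte markers summed to at most 0.233 and 0.0692 CPM. The macrophage and leukocyte markers summed to at most 0.594 CPM in any library and overlapped between all groups.

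Across the 18 libraries, the 5 genes whose log2 CPM followed MYLIP most closely among 13528 with a mean of at least 1 CPM were ZNF317, SDE2, GEM, XRCC1 and KPNA4, each with Pearson's r = 0.98. For ABCA1 they were ENSG00000283162, MOB2, PPP3CC, TIGD6 and BFSP1, with r of 0.91 to 0.92. None was another of the 10 genes. The libraries fall into groups and correlations within groups were not computed, so these values are given as descriptions.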

How the data were processed

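For every library a table of raw gene counts was deposited by the authors. Per the file headers and the study's methods, reads were trimmed with Trimmomatic, mapped to GRCh38 with STAR, passed through Picard MarkDuplicates and counted over exons with featureCounts 2.0.0 (reverse strand, primary alignments, Ensembl release 96). Files are named deduplicated, although the methods describe only the marking of duplicates, and removing them can compress abundant genes. Symbols were matched for 58472 of 58884 identifiers.

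A gene entered a fit with more than 10 counts over its libraries and was tested by edgeR 4.0.16 (R 4.3.3; TMM, robust quasi-likelihood F test, Benjamini-Hochberg adjustment over all genes). WT and PARP1 KO fits used 9 libraries each (22446 and 22037 genes), and interactions and the genotype comparison used all 18 (24675 genes). CPM used plain library totals, so ratios of CPM differ slightly from fold changes, which are TMM-scaled (median shift 0.091 on the log2 scale for niraparib in WT cells). SE is the absolute log2 change over the square root of F, and intervals are at 95%. Scripts were tested on simulated data. Correlations added 0.1 CPM before the log.

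Named were all 10 members, and from each related list at most 4 of the called genes, by size of change, in WT niraparib or its interaction. RNF145, VLDLR and the uncalled enzymes of LXR ligands were named in addition, after their values were seen. Some genes are not reported here. Members, lists and rule were chosen with earlier results of these data known. Alternatives were RLE size factors, filterByExpr, no filter, DESeq2 1.42.0, all 18 libraries in a fit, other thresholds, the replicate number as a block, each library left out, and, chosen after seeing the data, 2 or 3 libraries left out together. Promoter sequences are RefSeq's.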

Additional observations from a re-analysis of the deposited data

Results flagged for a closer look

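The response of MYLIP differed between the genotypes under both drugs by the interaction test of edgeR. With niraparib the log2 change in PARP1 KO cells was lower than that in WT cells by 1.03, an interaction of -1.03 (adjusted P = 1.30e-08). With olaparib the interaction was -0.61 (adjusted P = 0.0021). Both contrasts share the DMSO libraries of each genotype. Groups of 3 libraries were too small for the formal test of a single outlying value, and libraries that stood apart are named with the results they touch.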

How the results depend on the processing

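The counts of called members (3 with niraparib and 2 with olaparib in WT cells, 1 between the drugs, 0 in PARP1 KO cells and between genotypes, 1 in each interaction) were the same with RLE size factors, with either other filter, with DESeq2, with all 18 libraries in 1 fit and with only the 6 or 12 libraries compared in a fit. Members without an adjusted P in DESeq2 counted as not called. These were ABCG4 in PARP1 KO cells, ABCA1 there with niraparib against DMSO, and both between the genotypes without drug. On adjusted P alone, 5, 4 and 3 members passed in the WT comparisons of niraparib with DMSO, olaparib with DMSO and niraparib with olaparib, beside 38.0% of all genes for the first and 32.2% for the last. The 4 with olaparib were all higher, beside 11.2% of all genes. At an absolute log2 change above 1.5, the cut-off written in the study's methods, 0 passed in these 3 comparisons and in both interactions. The share of all genes passing that cut-off is not given here, so these counts are not read as a result about the members. When 1 library was left out, the count between the drugs in WT cells and that of the olaparib interaction ranged from 0 to 1. Without replicate 1 of WT DMSO and replicate 2 of WT niraparib the count between the drugs was 0 and that with olaparib 3, ABCG4 being added. Leaving out replicate 3 of PARP1 KO niraparib as well left the count of the niraparib interaction at 1. Of 1270 recomputed values for single genes, 62 had the opposite sign to the reported one, all for genes with an adjusted P of 0.549 or higher as reported. Scaling CPM by TMM moved 5 of 60 group means by more than 1 SD. The TMM factors were 1.047 to 1.076 in WT niraparib libraries and 0.9676 to 1.005 in the other groups, and why they differ was not tested.

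Libraries with the same replicate number were treated as unpaired, because no label says that they were handled together. Of 18 pairs, 5 had deviations from their group means correlated above 0.1 (range -0.542 to 0.555), which cannot settle how they were handled. With the replicate block the niraparib comparison in WT cells called 3 members, the olaparib comparison 2, the comparison of drugs 1 and each interaction 1, and no other member was called. Low counts limit ABCG4 and ABCA1 most (18 and 31 counts in the lowest libraries).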
